A study of Mus musculus with 6 samples.

Results

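Mitochondrial ribosomal proteins were examined at the RNA level in mouse tibialis anterior (TA) muscle after knockdown of Yap. The genes were taken by symbol: every gene of the count table whose symbol begins with Mrpl (large subunit) or Mrps (small subunit) and a digit, pseudogenes left out. This gave 76 genes, 47 Mrpl and 29 Mrps, of the 13226 genes counted. Each of 2 groups held 3 whole TA muscles of male C57BL/6 mice aged 8 weeks, taken 7 days after an injection of AAV6 vector. The 2 groups came from the same 3 animals, a control TA and a treated TA on opposite sides, but the labels do not say that a shared replicate number marks an animal. The main test and the permutation test below treat the 6 muscles as unpaired. AAV6 is an adeno-associated virus that enters muscle fibres. The treated muscles received AAV6:Yap-shRNA, a hairpin directed at the Yap transcript, and the other muscles a control vector. The sample titles name the control vector as empty, and the vector field names LacZ-shRNA. The vector plasmids carry a CMV promoter, which is not specific to muscle fibres. Whole muscle also holds vessels, nerve, connective tissue and immune cells, so fewer cells of a type and less RNA per cell cannot be told apart in these values.

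The mitochondrial ribosome translates the few mRNAs of the mitochondrial genome, which encode core subunits of the respiratory chain. Its RNAs are transcribed inside the organelle, whereas all of its proteins are made from nuclear genes, translated in the cytosol and imported. Assembly therefore draws on nuclear and mitochondrial transcripts together. Defects in several of its proteins cause mitochondrial disease of muscle, heart or brain.

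Library totals ranged from 11987167 to 12710393 counts, and the members took 0.285 to 0.367% of a library. Levels are given as CPM, counts scaled to the library total after TMM normalisation. The targeted gene Yap1 read 71.2, 65.3 and 68.4 CPM in controls against 32.0, 23.9 and 39.5 CPM after Yap-shRNA, with no overlap. Its log2 fold change was -1.10 ± 0.16 (SE), with an adjusted p of 0.436 in edgeR's quasi-likelihood fit of all genes. The exact permutation test of the 3 against 3 muscles gave p = 0.1 (two-sided), the smallest value it can give. With DESeq2 the adjusted p of Yap1 was 5.85e-07. The fast fibre genes dominated as muscle markers, and Acta1, skeletal actin, lay between 35055.6 and 47995.3 CPM.

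No mitochondrial ribosomal protein gene passed the test for a difference between Yap-shRNA and control muscles. By edgeR's quasi-likelihood test 0 of 76 members had an adjusted p under 0.05, as did 0 of all 13226 genes (0% called). At an unadjusted p under 0.05 there were again 0 members, where 232 genes of the table were called (1.75%). DESeq2, the likelihood ratio test of edgeR and limma-voom also called 0 members, adjusted or not. Over all genes DESeq2 called 0.0378% adjusted and 1.02% unadjusted, the likelihood ratio test 0.0378% and 1.53%, and limma-voom 0% and 1.49%. In 0 members did the 3 Yap-shRNA muscles lie wholly outside the 3 control muscles. Over all genes 2.56% lay wholly higher and 2.71% wholly lower.

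The log2 fold changes of the members were small and mostly a little below 0. The median was -0.052 over the 47 Mrpl genes and -0.040 over the 29 Mrps genes, against -0.0029 over all genes. Of the 76 members, 57 had a value below 0 (75%), where 51.1% of all genes did, and 57 lay within 0.1 of 0. The values ran from -0.28 for Mrps18c to 0.19 for Mrps34. For 71 members the 95% confidence interval of the fold change lay inside 1.5-fold in either direction, and for all 76 inside 2-fold. The intervals of Mrpl23, Mrpl27, Mrps18c, Mrps33 and Mrps36 reached past 1.5-fold. These intervals are for single genes and are not adjusted for their number.

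**Figure D1:**
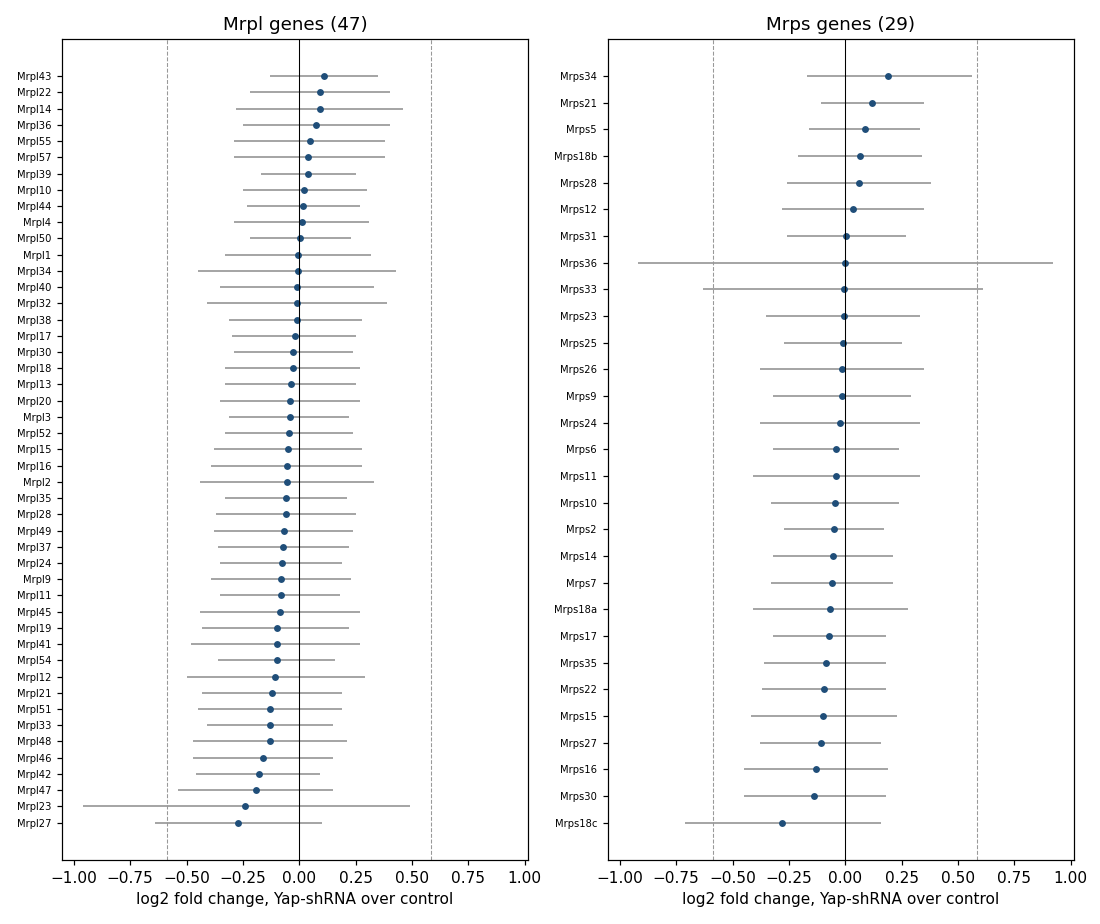
Log2 fold change of each member, Yap-shRNA over control, with its 95% confidence interval, for 47 Mrpl genes (left) and 29 Mrps genes (right) in order of size. Dashed lines mark 1.5-fold in either direction, and every interval spans 0.

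The summed levels of each subunit overlapped between the groups. The Mrpl genes together reached 1878.7, 2619.0 and 2314.4 CPM in controls 1, 2 and 3, and 2274.1, 2199.0 and 2083.1 CPM in the treated muscles of those numbers. The Mrps genes together gave 851.4, 1170.6 and 1021.2 CPM in the controls and 1011.1, 1006.5 and 955.6 CPM after Yap-shRNA. For both subunits the Yap-shRNA muscles lay inside the range spanned by the controls. The mean Mrpl sum after Yap-shRNA was 96.2% of the control mean (2185.4 ± 96.2 against 2270.7 ± 372.1 CPM, SD, n = 3). For Mrps it was 97.7% (991.0 ± 30.8 against 1014.4 ± 159.7 CPM, SD, n = 3). These differences are smaller than the SD of the controls.

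Among the members that form the factor-binding stalk, none passed the test. Mrpl12 is the stalk protein that recruits translation factors, and lies at chr11:120484613-120489065 (GRCm38, plus strand). It read 72.8, 127.9 and 97.1 CPM in controls and 90.4, 92.3 and 94.0 CPM after Yap-shRNA, so that the treated muscles fell between control 1 and control 3. Its log2 fold change was -0.11 ± 0.18 (SE), with a 95% confidence interval from -0.50 to 0.29. Mrpl10, which anchors the stalk, read 27.4, 34.9 and 35.4 CPM against 33.5, 35.2 and 30.5 CPM, with a log2 fold change of 0.021. Mrpl11, at the stalk base, gave -0.083, from 50.0 ± 7.28 to 47.2 ± 1.05 CPM (SD, n = 3).

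The genes of the catalytic core and exit tunnel of the large subunit overlapped between the groups in the same way. Mrpl3, which reaches toward the peptidyl transferase centre, read 46.3, 51.6 and 54.4 CPM in controls and 54.3, 51.0 and 42.6 CPM after Yap-shRNA. Mrpl27, another protein of that centre, had the lowest log2 fold change of the Mrpl genes, -0.27 ± 0.17 (SE), with an unadjusted p of 0.136 in edgeR's quasi-likelihood fit. It read 16.2, 25.3 and 20.9 CPM in controls and 19.1, 16.0 and 16.6 CPM after Yap-shRNA. Control 1 thus fell among the treated muscles, while controls 2 and 3 lay above them. Mrpl22, which lines the exit tunnel, gave 0.093, and Mrpl23 and Mrpl47 beside the tunnel exit gave -0.24 and -0.19. Mrpl14, on the face toward the small subunit, gave 0.093. Mrpl43 had the highest value of the large subunit, 0.11 ± 0.11 (SE), with 39.9, 45.6 and 48.6 CPM in controls and 51.7, 45.8 and 47.4 CPM after Yap-shRNA. Exons of other genes cover 33.4% of the exonic bases of Mrpl43 and 24.2% of those of Mrpl47. Without a stated strand setting the reads of these 2 genes cannot be assigned with certainty.

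Mrpl44, a member with a ribonuclease III fold, read 41.8, 43.9 and 45.4 CPM in controls and 50.4, 42.9 and 39.2 CPM after Yap-shRNA, a log2 fold change of 0.016. The peptidyl-tRNA hydrolase Mrpl58, which is also part of the large subunit, is counted under its older symbol Ict1 and so stands outside the 76. It read 27.2, 42.6 and 36.6 CPM in controls and 36.3, 32.2 and 34.2 CPM after Yap-shRNA, with a log2 fold change of -0.049.

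In the small subunit the decoding proteins showed no change past the test. Mrps12, next to the decoding site, read 29.9, 43.6 and 34.2 CPM in controls and 38.3, 34.4 and 37.7 CPM after Yap-shRNA. Mrps5, at the path of the incoming mRNA, gave a log2 fold change of 0.088. Mrps16 and Mrps22, whose loss causes mitochondrial disease in people, gave -0.13 and -0.094. Mrps27, an RNA-binding pentatricopeptide repeat protein, read 31.8, 42.1 and 41.0 CPM in controls and 35.5, 36.0 and 35.1 CPM after Yap-shRNA. The treated muscles were close to each other and lay between the control values.

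Mrps34, a protein needed for a stable small subunit, had the highest log2 fold change of all members, 0.19 ± 0.16 (SE), with an unadjusted p of 0.258 in edgeR's fit. It read 7.01, 8.44 and 9.11 CPM in controls and 10.4, 8.68 and 9.01 CPM after Yap-shRNA. Only Yap-shRNA 1 lay above every control. Mrps21 gave 0.12, and Yap-shRNA 1 was again apart, at 51.7 CPM beside 42.0 to 43.8 CPM in the other muscles. Other genes lie over 77.8% of the exonic bases of Mrps34, so that without a stated strand setting its reads cannot be assigned with certainty.

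None of the Mrps18 paralogs passed the test. Each carries the same ribosomal domain, and Mrps18a belongs by structure to the large subunit. Mrps18a read 52.7, 80.4 and 59.8 CPM in controls and 58.7, 66.7 and 58.8 CPM after Yap-shRNA, a log2 fold change of -0.066. Mrps18b read 13.7, 12.7 and 14.3 CPM against 13.3, 15.3 and 14.0 CPM, or 0.066. Mrps18c read 12.6, 19.3 and 12.0 CPM against 13.3, 11.4 and 11.5 CPM, or -0.28 ± 0.19 (SE), with an unadjusted p of 0.181 in edgeR's fit. The last value rests on control 2, the only muscle above 13.3 CPM, and was -0.029 without it. Per length, Mrps18a stood at 72.8 CPM per kb of transcript in controls, Mrps18c at 22.9 and Mrps18b at 12.6. A pseudogene row took 21.1% of the pair's counts for Mrps18c and 25.1% for Mrps18b. Other genes lie over 23.2% and 30.5% of their exonic bases. Mrps18a had neither a copy nor shared exonic bases. A test between the paralogs was not run.

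For some members the symbol does not match the place in the structure, Mrps18a among them. Mrps30, also a protein of the large subunit by structure, read 25.1, 35.9 and 29.4 CPM in controls and 29.9, 26.4 and 25.8 CPM after Yap-shRNA, a log2 fold change of -0.14. Mrps36 is known as a component of the oxoglutarate dehydrogenase complex rather than of the ribosome, and its row held 8 to 22 counts a library. With Mrps30 and Mrps18a moved to the large subunit and Mrps36 left out, the medians were -0.053 over 49 genes and -0.032 over 26.

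Levels per length differed widely among the members. In controls the median was 27.5 CPM per kb of transcript for Mrpl genes and 18.5 for Mrps genes. The highest levels per kb belonged to Mrpl42 with 265.0 and Mrpl30 with 97.5 in the large subunit, and to Mrps21 with 86.6 and Mrps18a with 72.8 in the small subunit. The lowest were Mrpl23 with 2.04, Mrpl19 with 4.14, Mrps36 with 1.99 and Mrps25 with 3.96. For Mrpl23 and Mrps36 a near-identical pseudogene row held 94.2% and 80.6% of the pair's counts. Other genes lie over 69.8% of the exonic bases of Mrps25 and 36.0% of those of Mrpl19. The part of read assignment in these low levels was not tested. Lengths are those of the transcript with the longest coding sequence in GENCODE M21, which is 6073 nt for Mrps25, and another transcript would give another level.

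The members varied together from muscle to muscle, and more between control muscles than between the groups. Control 2 held the highest level of 60 of the 76 members (78.9%), against 23.6% of all genes. Control 1 held the lowest level of 58 members (76.3%), against 22.3% of all genes. For 49 members (64.5%) all 3 Yap-shRNA muscles lay between control 1 and control 2, where 13.7% of all genes did so. Among 3609 other genes within 2-fold of the members' median CPM, the shares were 29.2%, 27.4% and 18.4%. The members were measured in the same 6 libraries and are not independent of each other.

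The median deviation of the Mrpl genes from their own mean over the 6 muscles was -0.22, 0.25 and 0.050 on the log2 scale in controls 1 to 3, and 0.030, 0.0025 and -0.088 in Yap-shRNA muscles 1 to 3. For the Mrps genes it was -0.21, 0.22 and 0.051 in controls, and 0.016, 0.0087 and -0.078 after Yap-shRNA. Both subunits thus gave the same order in the controls, and the median of all genes stayed within 0.011 of 0 in every muscle. The ratio of control 2 to control 1 had a median of 1.40 over the members and ran from 0.645 to 2.95. Mrpl23, with 13 to 25 counts a library, and Mrps36 were the members at those ends. As an example with ample counts, Mrpl34 read 29.3 CPM in control 1 and 54.4 CPM in control 2, with 39.6 to 46.4 CPM in the treated muscles.

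**Figure D2:**
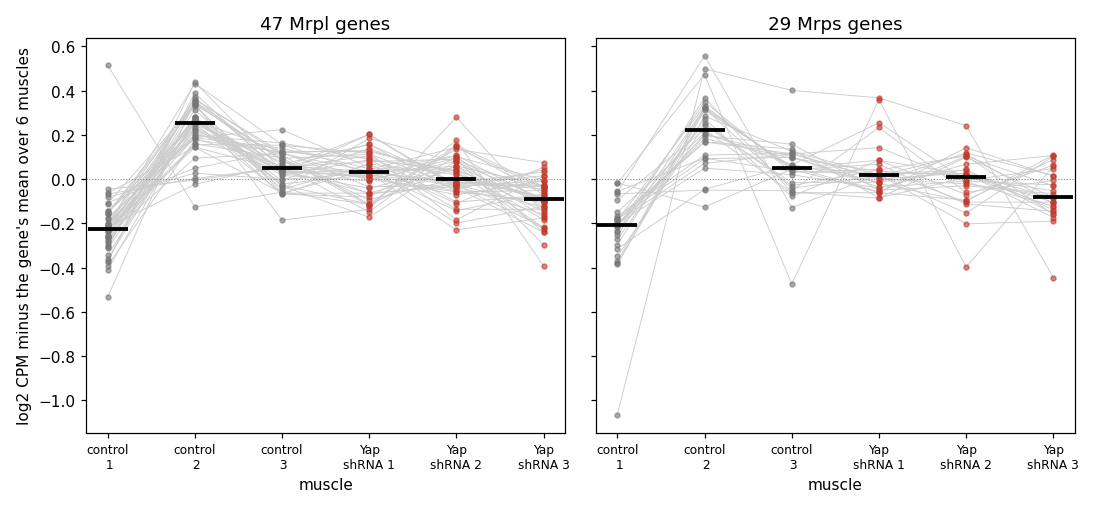
Level of each member in each muscle as log2 CPM minus the gene's mean over the 6 muscles, for 47 Mrpl genes (left) and 29 Mrps genes (right). Points are genes, grey lines join a gene, grey points are control and red points Yap-shRNA muscles, and black bars are medians. By the medians control 1 is lowest and control 2 highest, with the Yap-shRNA muscles between.

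The medians of both subunits depended on which control muscle was left out. Without control 1 the medians were -0.16 for Mrpl and -0.16 for Mrps. Then 8 members (10.5%) were lower at an unadjusted p under 0.05, among 3.42% of all genes, and 0 genes had an adjusted p under 0.05 by edgeR. They were Mrpl12, Mrpl27, Mrpl42, Mrpl46, Mrpl47, Mrpl48, Mrpl51 and Mrps27, several of which are named here only because of this setting. In the same setting 27 members (35.5%) lay wholly lower after Yap-shRNA, among 12% of all genes. Without control 2 the medians were 0.056 and 0.054, and 3 members lay wholly higher (3.95%, among 6.78% of all genes). The sign of both medians was thus different without control 2 than with all 6 muscles.

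**Figure D3:**
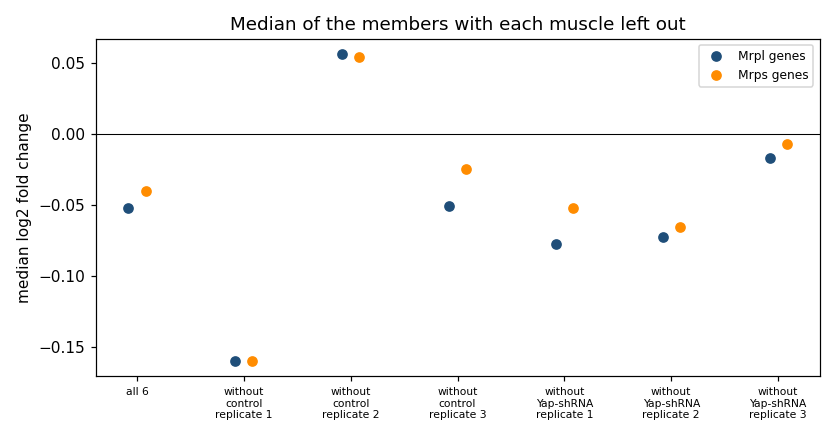
Median log2 fold change of the Mrpl genes (blue) and Mrps genes (orange) with all 6 muscles and with each muscle left out. Leaving out control 1 gave -0.16 for both, and leaving out control 2 gave 0.056 and 0.054.

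The other genes of mitochondrial gene expression were described in the same way. The nuclear genes of respiratory chain subunits, matched by symbol, had a median log2 fold change of -0.061 over 80 genes. Of these, 0 were called at an unadjusted p under 0.05, 58 were highest in control 2 and 68 lowest in control 1. This order over the muscles is the one the ribosomal members showed. Ndufb4, a complex I subunit, had the lowest value, -0.23, and Cox4i2, a complex IV isoform, the highest, 0.20.

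Closer partners of the mitochondrial ribosome gave small values too. The 5 ribosomal proteins with other symbols, Dap3, Ptcd3, Chchd1, Aurkaip1 and Gadd45gip1, ran from -0.17 to -0.062 and 0 of them passed the test. Of 16 translation factors, 13 were below 0, with a median of -0.079. Tufm, the elongation factor that delivers aminoacyl-tRNA, was lowest at -0.28, and Taco1, a translational activator of Cox1, highest at 0.16. The 17 mitochondrial aminoacyl-tRNA synthetases had a median of -0.061 and ran from -0.19 for Nars2 to 0.15 for Pars2. The 22 assembly and rRNA modification genes had a median of -0.022, from -0.23 for Mterf4 to 0.095 for Gtpbp10. In each of these lists 0 genes had an unadjusted p under 0.05. Control 2 was highest for 50% of the translation factors, 52.9% of the synthetases and 50% of the assembly genes, against 23.6% of all genes. Control 1 was lowest for 50%, 35.3% and 45.5% of them, against 22.3% of all genes.

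Transcripts made inside the mitochondria gave values above 0. The 7 mitochondrial mRNAs in the table had a median log2 fold change of 0.090, with 0 past the test. Of these, 5 were lowest in control 1 and 1 was highest in control 2. The ribosomal RNAs mt-Rnr1 and mt-Rnr2 gave 0.013 and 0.037, and neither was highest in control 2 nor lowest in control 1. Polyadenylated RNA was sequenced, so the rRNA counts measure only what that selection kept. The upkeep and transcription genes of mitochondrial DNA had a median of -0.0091, and Tfam, the main packaging factor, gave -0.042. The regulators of nuclear mitochondrial genes had a median of -0.042 over 12 genes, with Ppargc1a, a coactivator of mitochondrial biogenesis, at -0.064. The 70 cytosolic ribosomal protein genes had a median of 0.026, with 28 highest in control 2 and 23 lowest in control 1.

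**Figure D4:**
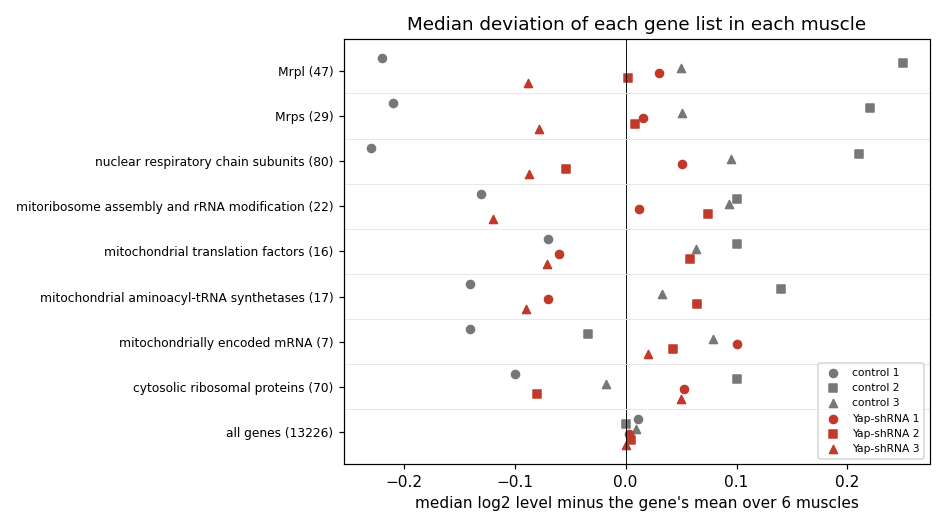
Median over each gene list of the log2 level minus the gene's mean over the 6 muscles, one symbol per muscle (grey control, red Yap-shRNA), with the number of genes in brackets. The Mrpl, Mrps and respiratory chain lists have control 1 lowest and control 2 highest. The synthetase, assembly and cytosolic ribosomal protein lists have the same 2 muscles at the ends, with medians within 0.14 of 0. The median of all genes stays near 0.

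By their sums, tendon, fibroblast and macrophage markers were highest in control 1 and Yap-shRNA 3, while other marker lists had other orders over the muscles. The 6 tendon genes summed to 679.3 CPM in control 1 and 556.4 CPM in Yap-shRNA 3, the muscles with the lowest Mrpl sums of their groups, and to 127.1 to 176.2 CPM in the other 4. None of the 6, Tnmd and Scx included, was at 0 in any muscle. The 6 fibroblast genes summed to 2559.4 and 2971.3 CPM in the same muscles and to 1254.5 to 1505.7 CPM in the others. The 5 Schwann cell genes were each highest in control 2 and lowest in control 1, as the members mostly were. The 10 macrophage genes summed to 237.6, 149.4 and 98.0 CPM in controls 1 to 3 and to 169.0, 204.4 and 218.4 CPM in Yap-shRNA muscles 1 to 3. The 6 liver genes summed to 0.778, 48.1 and 401.8 CPM in controls and 12.7, 35.3 and 0.399 CPM after Yap-shRNA, and Serpina1a was at 0 in 3 muscles. Their median log2 fold change was -3.25, most of the control sum being in control 3. By edgeR's quasi-likelihood test 4 of them were lower at an unadjusted p under 0.05, among 0.869% of all genes. Of the 6, 0 had an adjusted p under 0.05 and 0 had groups apart. The 6 adipocyte genes summed to 240.5 to 270.6 CPM in controls and 234.6 to 295.7 CPM after Yap-shRNA, most of it from Fabp4. The other 5 were each highest in Yap-shRNA 3, where Adipoq read 16.3 CPM beside 1.59 to 4.75 CPM in the other muscles and Plin1 read 10.8 CPM beside 1.59 to 3.27 CPM. The median log2 fold change of the adipocyte list was 1.08, with 0 genes at an unadjusted p under 0.05. The 6 endothelial genes ran from 317.1 to 395.2 and from 342.2 to 375.9 CPM, and the 5 erythroid genes from 120.0 to 203.0 and from 101.0 to 242.5 CPM. The fast fibre genes ran from 163841.1 to 184942.7 CPM and from 156456.7 to 182268.6 CPM, and the slow or oxidative fibre genes from 3904.7 to 5031.9 CPM and from 3859.6 to 4904.0 CPM. The part of tissue content in the members' values was not tested. Without control 1 and Yap-shRNA 3 the medians were -0.13 for Mrpl and -0.14 for Mrps.

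Several members share sequence with processed pseudogenes that have a row of their own, and some of these rows hold more counts than the gene. Of 24 members with a copy of at least 90% identity over 150 coding bases, 16 had a copy in the table. Mrpl23 held 25, 15 and 16 counts in controls and 15, 20 and 13 after Yap-shRNA, whereas Mrpl23-ps1 on chromosome 2 held 271, 332 and 288, then 240, 276 and 283. The aligned 421 bases are identical, so that reads from this stretch cannot be told apart by sequence. Mrps36 held 8, 22 and 21 counts in controls and 20, 20 and 12 after Yap-shRNA, beside 70, 70 and 80, then 86, 58 and 65 counts on Mrps36-ps1 on chromosome 17. These rows took 94.2% and 80.6% of their pairs' counts. They do not say from which locus the reads came.

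The stretches below show how little separates each gene from its copy. They are bases of the coding sequence from GENCODE M21 (GRCm38), counted from 1 at the first base of the start codon, with differing bases in capitals. The first pair is coding bases 96 to 185 of Mrpl23 and the second is coding bases 46 to 135 of Mrps36.
Mrpl23: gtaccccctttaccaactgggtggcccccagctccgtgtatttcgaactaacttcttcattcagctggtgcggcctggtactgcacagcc
Mrpl23-ps1: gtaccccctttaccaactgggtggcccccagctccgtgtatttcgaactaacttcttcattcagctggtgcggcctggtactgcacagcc
Mrps36: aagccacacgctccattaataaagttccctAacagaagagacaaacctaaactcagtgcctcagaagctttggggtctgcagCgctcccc
Mrps36-ps1: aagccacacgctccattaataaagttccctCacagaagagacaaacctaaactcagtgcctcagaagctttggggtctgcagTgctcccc
The Mrpl23 lines are the same in every base. Mrps36-ps1 differs from Mrps36 by A76C and C128T, and these are the only differences in the 306 aligned bases. Adding each copy's counts to its member left the medians at -0.052 and -0.040.

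**Figure D5:**
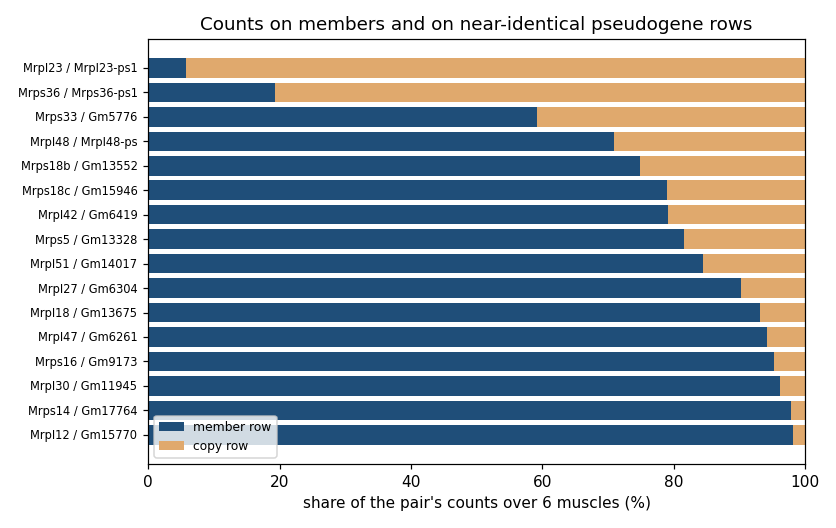
Share of the counts of each pair on the member row (blue) and on its pseudogene row (tan), summed over the 6 muscles, for 16 pairs. The copy took 94.2% of the pair for Mrpl23 and 80.6% for Mrps36, and 40.8% or less for the other 14 pairs.

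Many members lie head to head with another coding gene. In GENCODE M21, 26 of the 76 members (34.2%) had a coding gene on the opposite strand whose start was within 1000 bases upstream or overlapped theirs by up to 500 bases, against 14% of 11956 coding genes of the table. Mrps11 and Mrpl46 face each other with starts that overlap by 413 bases on chromosome 7. Mrps11 read 18.8, 29.8 and 26.7 CPM in controls and 24.8, 22.0 and 26.3 CPM after Yap-shRNA. Mrpl46 read 24.5, 35.8 and 30.0 CPM and 27.0, 27.8 and 25.9 CPM. Both were highest in control 2. Mrps12 faces Sars2, the mitochondrial seryl-tRNA synthetase, which had a log2 fold change of -0.15. Members with such a partner had a median of -0.039 and the 50 without one -0.047.

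The promoters of the members were searched for letters of 3 factors known to act on nuclear mitochondrial genes. Whether these letters bear on the shared variation of the members over the muscles was not tested. RefSeq promoters (GRCm38.p6, 250 bases before to 50 after the start) matched 67 members. The ETS motif CCGGAAG, on either strand, was in 35.8% of them, against 19.5% of the genes of the table and 9.93% of all RefSeq genes with a promoter. AAGATGG, letters of the YY1 motif, was in 19.4%, 8.41% and 7.28%. GCGCATG, part of the NRF1 motif, was in 11.9%, 7.97% and 4.41%. By subunit, NRF1 letters were in 7 of 41 Mrpl promoters (17.1%) and 1 of 26 Mrps promoters (3.85%), ETS letters were in 31.7% and 42.3%, and YY1 letters were in 17.1% and 23.1%. The difference between the subunits was not tested. The promoters of 62 respiratory chain genes held the ETS letters in 24.2%, the YY1 letters in 16.1% and the NRF1 letters in 17.7%. An ETS and a YY1 match can share letters, which occurred in 0 of the 67 members. A match is a description of sequence and not a site.

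The bases between facing starts are given for 3 pairs, read on the member's strand in GRCm38, as examples of stretches with and without these letters. Capitals mark a motif match, which lies on the opposite strand in each case.
Mrpl10 and Lrrc46, chr11:97041408-97041559, plus strand: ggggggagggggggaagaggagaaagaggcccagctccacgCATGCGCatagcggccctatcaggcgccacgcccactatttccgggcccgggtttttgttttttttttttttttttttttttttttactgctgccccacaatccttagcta
Mrps27 and Ptcd2, chr13:99344706-99344785, plus strand: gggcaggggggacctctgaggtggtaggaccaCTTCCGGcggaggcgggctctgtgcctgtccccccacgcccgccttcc
Mrps12 and Sars2, chr7:28741821-28741991, minus strand: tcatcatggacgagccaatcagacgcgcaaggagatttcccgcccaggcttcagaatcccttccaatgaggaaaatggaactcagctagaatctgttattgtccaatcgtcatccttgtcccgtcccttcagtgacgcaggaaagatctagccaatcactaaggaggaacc
The first stretch holds the NRF1 letters and the second the ETS letters, while the third holds none of the 3 motifs. The longer promoter windows, which reach past the start, also hold YY1 letters for Mrps27 and both ETS and YY1 letters for Mrps12. Ptcd2, the partner of Mrps27, read 27.6, 45.3 and 32.4 CPM in controls and 31.7, 39.2 and 30.2 CPM after Yap-shRNA, with control 2 highest. The partner genes did not share one order over the muscles. Control 2 was the commonest highest muscle, also for Hira, Klc4, Ndufs6, Psma2, Sars2, Zfp189 and Zfp661. Eme2, Helq, Ighmbp2, Mtbp and Pnpla7 were highest in control 1, and Cyb5rl and Gga3 in control 3. Apba3, Mitd1, Ncapd2, Ppp1r10 and Wdfy1 were highest in a Yap-shRNA muscle.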

How the data were processed

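The authors sequenced polyadenylated RNA (TruSeq libraries) of whole TA muscle and deposited the counts of reads on each gene, not normalised. The submitters' processing notes name bcl2fastq 2.20.0.422 and the build GRCm38; the mapper, counter and strand setting are not given in the sources used here. No gene had fewer than 60 counts over the 6 libraries. Library totals bear on precision: counting error is largest for the 3 members with a median under 100 counts.

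All 13226 genes were fitted with edgeR 4.0.16 (TMM scaling, quasi-likelihood test with group alone in the model; R 4.3.3), with Benjamini-Hochberg adjustment over all genes and a threshold of 0.05; the biological coefficient of variation was 15.7%. Standard errors are the log2 fold change over the square root of the test statistic, and 95% confidence intervals use the t quantile of the fit. Log2 levels used 0.5 added to each count. Alternatives were DESeq2 1.42.0, the likelihood ratio test, limma-voom (limma 3.58.1), other scalings, a count filter, a replicate block and leaving out muscles. Adding copies' counts and leaving out control 1 with Yap-shRNA 3 were chosen after seeing the data.

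Members and lists were chosen with earlier results of these data known. The genes named were Yap1, members fixed for their role, the 3 highest and 3 lowest fold changes and the 2 highest and 2 lowest levels per length in each subunit, and the ends of other lists. Mrpl34, Mrpl46, Mrpl48, Mrpl51, Mrps11, Mrps33, Acta1, Adipoq, Plin1, Fabp4, Tfam, Ppargc1a, the partner genes and Serpina1a were named after their values were seen. Control and treated muscles came from the same 3 animals, but which muscles share an animal is not given. The main fit therefore has no animal term, and its p-values come from a test that takes the muscles as unpaired.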

Additional observations from a re-analysis of the deposited data

Results flagged for a closer look

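Rows of pseudogenes left out by the symbol rule held reads in every library, where 3 counts are the limit that a count of 0 allows. The mean count over the 6 libraries was 281.7 on Mrpl23-ps1, 121.3 on Mrpl48-ps and 71.5 on Mrps36-ps1. Their log2 fold changes were -0.18, 0.019 and -0.086, and none had an adjusted p under 0.05 by edgeR. Which locus the reads came from was not tested.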

How the results depend on the processing

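The count of members past the threshold stayed at 0 under all alternatives run. DESeq2 and the likelihood ratio test put Yap1 past it (log2 fold change -1.10 in each, adjusted p 5.85e-07 and 2.22e-06); the cause was not tested. The medians were -0.029 and -0.019 with library totals only, where 1 Mrps gene had groups apart. With TMM scaling 5.27% of all genes had groups apart in either direction. The share of all genes with library totals only was not counted. Leaving out 1 muscle at a time, the median ran from -0.16 to 0.056 for Mrpl and from -0.16 to 0.054 for Mrps. Members at an unadjusted p under 0.05 ran from 0 to 7 for Mrpl and 0 to 1 for Mrps, and those with groups apart from 0 to 17 and 0 to 10. Without control 1 and Yap-shRNA 3, 2 Mrpl genes had an unadjusted p under 0.05 (2.63% of members, 5.56% of all genes), and 18 Mrpl and 11 Mrps genes had groups apart. Of these, 28 were lower (36.8% of members, 17.4% of all genes) and 1 was higher (1.32% and 17.6%). The members named by rule and Ict1, 28 genes together, were followed singly under 16 settings. Of these, 17 changed sign somewhere, none with an adjusted p under 0.05. With 1 muscle left out at a time, the log2 fold change ran from -0.09 to 0.086 for Mrpl10, -0.29 to 0.12 for Mrpl12, -0.2 to 0.0016 for Mrpl11, -0.12 to 0.052 for Mrpl3, -0.088 to 0.095 for Mrpl44, -0.066 to 0.28 for Mrpl14, -0.14 to 0.082 for Mrpl30 and -0.2 to 0.052 for Mrpl19. It ran from -0.25 to 0.0082 for Mrps30, -0.19 to 0.13 for Mrps18a, -0.36 to 0.25 for Mrps36, -0.08 to 0.2 for Mrps12, -0.25 to 0.034 for Mrps16, -0.1 to 0.037 for Mrps25 and -0.21 to 0.1 for Ict1. Without control 1 and Yap-shRNA 3 together it was -0.036 for Mrpl10, 0.12 for Mrpl23, -0.15 for Mrps36, -0.1 for Mrps12 and -0.02 for Mrps5. Mrps36 gave -0.00012 by the likelihood ratio test and -0.07 with its copy, and Mrps25 gave 0.0068 with library totals only. The replicate block gave medians of -0.046 and -0.023, an adjusted p of 0.105 for Yap1 by edgeR and no member past the threshold. Over all genes, the departure from the group mean correlated at -0.12, 0.22 and -0.42 between muscles that share a number, so the numbers were not shown to pair the muscles.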
